A study of Oryza sativa with 6 samples.

Results

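A group of 8 rice genes that relay or restrain the nitrate signal was followed in roots of the mutant line mads61-3 and of wild-type (WT) plants: the NIN-like protein genes NLP1, NLP3, NLP4, NLP5 and NLP6, the repressor gene NIGT1, the BTB-domain gene OsBT and the SPX-domain gene SPX4. They were chosen by locus, 8 of 36960 features in the deposited tables. The tables name 3 of them (NIGT1, OsBT and OsSPX4) and list the 5 NLP loci without a name, so the NLP names are those given to these loci in the definition of the group. mRNA libraries were sequenced from 6 root samples, 3 of line mads61-3, which carries a mutation in the MADS-box gene OsMADS61, and 3 of WT. Plants of both groups stood in a hydroponic solution with nitrate at 2.5 mM and no fungal partner, and several seedlings shared a tank. The labels describe neither the allele nor a second mutant line, so every difference below is that of 1 line from WT. No source says that each replicate had its own tank, and the p-values therefore cover the variation among these samples only, part of which may be technical. The question was how OsMADS61 bears on nitrate transport in such roots.

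NLP proteins are transcription factors of the RWP-RK type that enter the nucleus or become active when nitrate arrives and switch on genes for nitrate uptake and reduction. In Arabidopsis an NLP protein also binds nitrate itself. NIGT1 is a nitrate-induced repressor of the GARP family, and OsBT encodes a BTB-domain scaffold protein that in rice restrains nitrate uptake. SPX4 holds phosphate and nitrate regulators, NLP3 among them, in the cytoplasm of rice cells until the nitrate transporter NRT1.1B and its partners cause SPX4 to be degraded, which links nitrate supply to the phosphate response. Much of the control of NLP and SPX4 therefore lies in the protein, which RNA levels do not show.

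Libraries held 27060698 to 34179150 counts in mads61-3 and 24145708 to 27338562 in WT. All 8 regulators had enough counts to be tested, among 25531 features. OsMADS61 (Os04g0461300, chromosome 4), which checks the labels, stood at 3.25, 1.38 and 2.3 FPKM (fragment values scaled by the authors to gene length and library depth) in mads61-3 replicates 1 to 3, against 243, 309 and 1.24 FPKM in the libraries labelled WT replicates 1 to 3. The library labelled WT replicate 3 thus goes against its label for this gene. Fold changes of the 8 regulators are given with and without it, and most other results only with it. Of the root markers, all 4 were found, with a summed level of 1951 to 3930 FPKM in mads61-3 and 1124 to 1596 FPKM in WT. Among them RCc3 and AKT1 overlapped between the groups in FPKM. RCc3 stood at 77.8, 96.3 and 61.0 FPKM in mads61-3 and 27.3, 253 and 1081 FPKM in WT. LSI1 and LSI2 were higher in every mutant library than in every WT library in FPKM, but overlapped in counts scaled to library size. The log2 fold changes (mads61-3 over WT) of LSI1, LSI2, AKT1 and RCc3 were 1.45, 1.7, 1.49 and -2.56. None passed the edgeR test used below (adjusted p = 0.24, 0.264, 0.276 and 0.294). Of 7 leaf markers 6 were found, none of them at 0 in every library. Their summed level was 14.2, 192 and 62.0 FPKM in mads61-3 and 0.695, 17.4 and 4.56 FPKM in WT, and the part of such RNA in the results below was not tested. In whole roots, fewer cells of a type and less RNA per cell cannot be told apart.

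Of the 8 regulators, OsBT fell in mads61-3, none rose, and 7 did not pass the test (edgeR's quasi-likelihood test, adjusted p under 0.05 over all features). NIGT1 was the other gene whose mutant libraries all lay below WT. The 5 NLP genes among them and SPX4 overlapped between mads61-3 and WT. NLP3 made up a smaller share of the summed NLP level in every mutant library (exact two-sided permutation test, p = 0.1, the smallest possible). No background share of features was computed for that pattern. Across all features edgeR called 1.25%, with 83 higher and 236 lower in mads61-3. Limma on log2(FPKM + 1) called 187 higher and 294 lower, and DESeq2 1121 higher and 1345 lower. The mutant and WT libraries did not overlap for 2 of the 8 regulators, against 22.7% of all tested features, a share near the background that says nothing about the regulators as a group. Their median log2 fold change (mads61-3 over WT) was -0.23, beside -0.04 over all tested features.

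**Figure D1:**
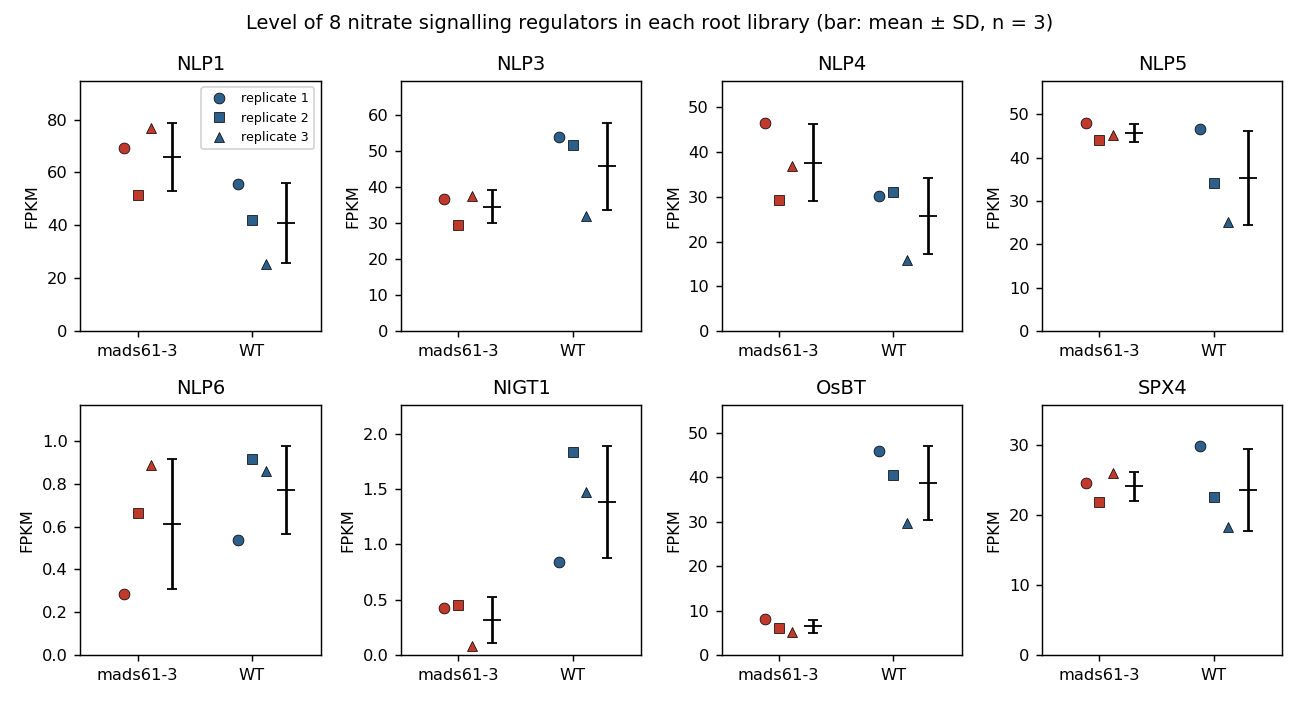
Level in FPKM (vertical axes, from 0) of each of the 8 regulators in the 3 mads61-3 libraries (left, red) and the 3 WT libraries (right, blue), with symbols for the replicate number and a bar for the mean ± SD (n = 3). OsBT and NIGT1 have all mutant libraries below all WT libraries, and the other 6 genes overlap.

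Among the activators, 4 NLP genes were abundant. NLP1, NLP3, NLP4 and NLP5 ranged from 29.4 to 76.8 FPKM in mads61-3 and from 15.9 to 55.6 FPKM in WT. NLP6 lay under 1 FPKM in every library.

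NLP1 (Os03g0131100, chromosome 3), a gene known in rice for promoting nitrogen use, had 69.2, 51.7 and 76.8 FPKM in mads61-3 replicates 1 to 3, against 55.6, 42.1 and 25.3 FPKM in WT. The groups overlapped, because mads61-3 replicate 2 lay below WT replicate 1. The log2 fold change was 0.58 (SE 0.40, 95% interval -0.38 to 1.53; edgeR, adjusted p = 0.533), so anything from a small decrease to a 2.88-fold higher level lies inside the interval.

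NLP3 (Os01g0236700, chromosome 1), the NLP protein that SPX4 binds in rice, had 36.8, 29.4 and 37.5 FPKM in mads61-3 and 53.8, 51.7 and 31.9 FPKM in WT. WT replicates 1 and 2 stood above every mutant library, and WT replicate 3 among them. The log2 fold change was -0.50 (SE 0.32, 95% interval -1.25 to 0.25; edgeR, adjusted p = 0.486). Without WT replicate 3 it was -0.73 and still did not pass (edgeR, adjusted p = 0.192).

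NLP4 (Os09g0549450, chromosome 9), also known in rice for nitrogen use, had 46.6, 29.4 and 36.9 FPKM in mads61-3 and 30.2, 31.1 and 15.9 FPKM in WT. Mutant replicate 2 lay below WT replicates 1 and 2, and the log2 fold change was 0.45 (SE 0.36, 95% interval -0.41 to 1.32; edgeR, adjusted p = 0.591). NLP5 (Os11g0264300, chromosome 11) was steady among the mutants at 48.1, 44.0 and 45.2 FPKM, against 46.7, 34.2 and 25.1 FPKM in WT. Its log2 fold change was 0.24 (SE 0.32, 95% interval -0.52 to 1.00; edgeR, adjusted p = 0.767).

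NLP6 (Os02g0136000, chromosome 2) was the rare member, at 24, 44 and 62 counts in mads61-3 and 36, 55 and 58 counts in WT. In FPKM it stood at 0.287, 0.662 and 0.890 in mads61-3 and 0.538, 0.915 and 0.862 in WT. The wide 95% interval of its log2 fold change, -1.58 to 0.79 around -0.40 (SE 0.50; edgeR, adjusted p = 0.75), holds both lower and higher levels. With WT replicate 3 left out, the log2 fold changes of NLP1, NLP4, NLP5 and NLP6 were 0.29, 0.18, 0.01 and -0.35 (edgeR, adjusted p = 0.718, 0.81, 0.989 and 0.817).

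**Figure D2:**
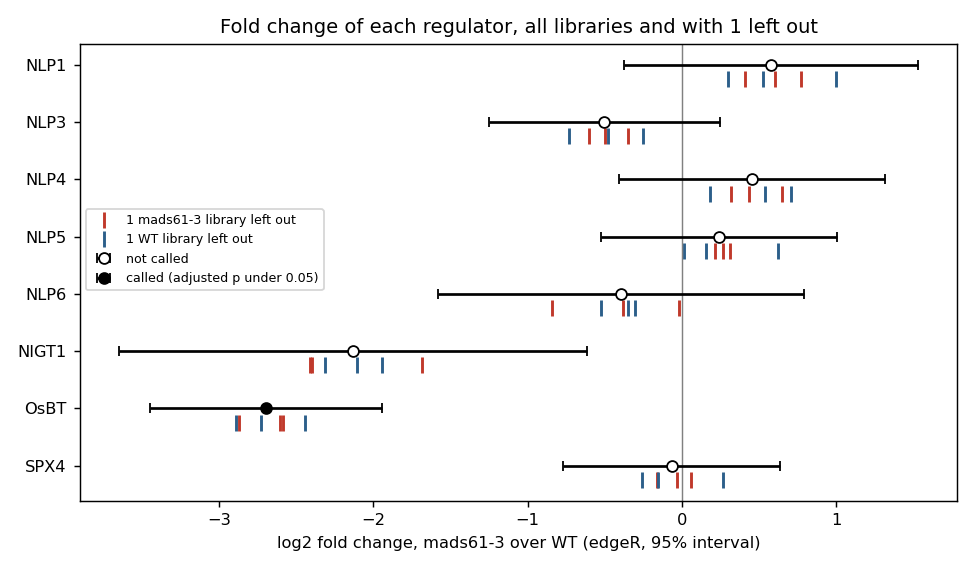
Log2 fold change of each regulator, mads61-3 over WT, with its 95% interval from edgeR (horizontal axis); the filled point is the one called. Ticks below each point are the values with 1 mads61-3 library (red) or 1 WT library (blue) left out, and only for SPX4 do they fall on both sides of 0.

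Added up, the 5 NLP genes came to 201, 155 and 197 FPKM in mads61-3 and 187, 160 and 99.0 FPKM in WT (184 ± 25.5 and 149 ± 45.0, SD, n = 3 each; exact two-sided permutation test, p = 0.3). The sums overlapped between groups.

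NLP3 made up 18.3, 18.9 and 19.0% of the summed NLP FPKM in mads61-3, against 28.8, 32.3 and 32.2% in WT. The mutant values lay close together and well below every WT library, WT replicate 3 included. The difference was -12.3 percentage points (18.8 ± 0.386% in mads61-3 and 31.1 ± 1.99% in WT; exact two-sided permutation test, p = 0.1, the smallest that 3 against 3 libraries can give). With 1 library left out it ran from -13.5 to -11.7 points.

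NLP1 took a larger part in mads61-3, 34.5, 33.3 and 38.9%, against 29.8, 26.3 and 25.6% in WT, again without overlap (difference 8.35 points, exact two-sided permutation test, p = 0.1). Shares of the same sum are tied, so a smaller NLP3 share raises the others. The NLP1 and NLP3 shares are therefore not independent results. The shares of NLP4 (20.3 ± 2.51% in mads61-3 and 17.2 ± 1.93% in WT) and NLP5 (25.1 ± 2.91% and 23.9 ± 2.2%) overlapped. By FPKM the order in mads61-3 was NLP1, then NLP5, with NLP3 and NLP4 behind them and level in mutant replicate 2. In WT replicates 2 and 3 NLP3 came first, and in WT replicate 1 it stood just behind NLP1.

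**Figure D3:**
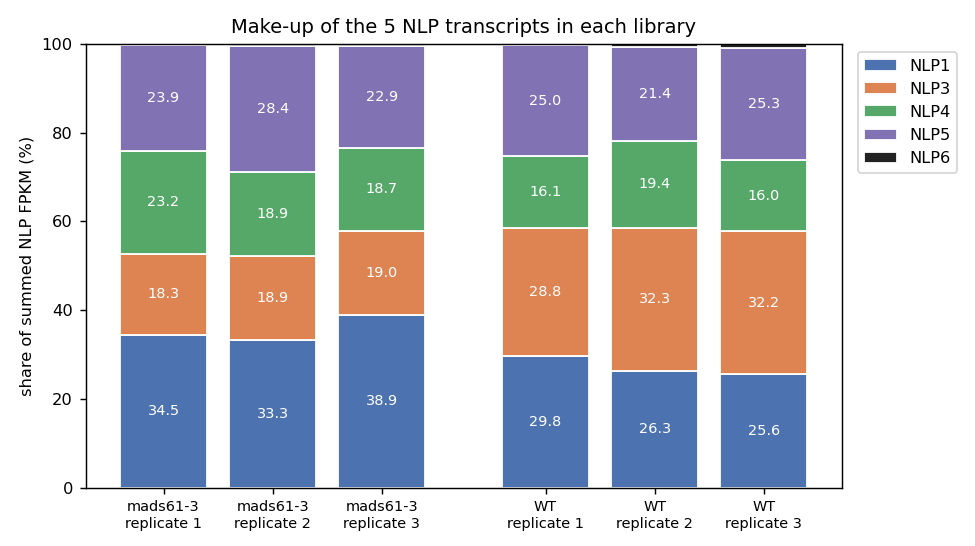
Share of each NLP gene in the summed FPKM of the 5 NLP genes (vertical axis, %), 1 bar per library with mads61-3 on the left and WT on the right; NLP6 is the thin dark band at the top. The NLP3 band is 18.3 to 19.0% in mads61-3 libraries and 28.8 to 32.3% in WT libraries.

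Ratios inside a library do not depend on how libraries are scaled to each other. A set of 9 such ratios was chosen after the values were seen. NLP3 stood at 0.531, 0.568 and 0.488 of NLP1 in mads61-3, against 0.967, 1.23 and 1.26 of NLP1 in WT (FPKM). The ratio of NLP3 to NLP4 was 0.790, 1.00 and 1.02 in mads61-3 and 1.78, 1.66 and 2.01 in WT, and that of NLP3 to NLP5 0.765, 0.667 and 0.830 in mads61-3 and 1.15, 1.51 and 1.27 in WT. NLP3 was thus lower against each of its 3 abundant relatives in every mutant library. Ratios among NLP1, NLP4 and NLP5 overlapped between the groups. Each non-overlapping ratio had p = 0.1 by the exact two-sided permutation test and 0.15 after Benjamini-Hochberg adjustment over the 9. As background, 24531 features had a value above 0 in every library. Of these, 20% also had a ratio to NLP1 that was lower in all mutant libraries than in all WT libraries. A lower ratio to NLP1 was thus not particular to NLP3. No background was computed for ratios to NLP4, NLP5 or SPX4, or for the NLP shares.

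OsBT (Os01g0908200, chromosome 1), the BTB-domain brake on nitrate uptake, was the regulator that fell. It had 427, 254 and 221 counts in mads61-3 replicates 1 to 3, against 1898, 1520 and 1259 counts in WT. In FPKM these were 8.13, 6.03 and 5.07 in mads61-3 and 45.8, 40.6 and 29.7 in WT. Every mutant library was far below every WT library, and the library labelled WT replicate 3, with OsMADS61 at the mutant level, held OsBT with the other WT libraries.

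On the CPM scale (read counts scaled to library size by TMM) OsBT averaged 9.65 ± 2.43 in mads61-3 and 62.7 ± 19.3 in WT (SD, n = 3 each). It was 6.49-fold lower in the mutant (log2 fold change -2.70, SE 0.32, 95% interval -3.45 to -1.95; edgeR, adjusted p = 0.0215). Among all tested features, OsBT lay between percentiles 44.1 and 53.2 by FPKM in the mutant libraries and between 81.6 and 89.2 in WT. Without WT replicate 3 the log2 fold change was -2.89 (edgeR, adjusted p = 0.0122), in a fit that called 2.76% of features. The call was lost without WT replicate 2 (edgeR, adjusted p = 0.0581) and without mads61-3 replicate 1, 2 or 3 (edgeR, adjusted p = 0.106, 0.0751 and 0.146), where edgeR called 0, 14 and 0 features in all. Over the 14 alternative settings the log2 fold change stayed between -2.89 and -2.42, with adjusted p from 2.04e-12 to 0.146.

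Set against NLP3 in the same library (FPKM), OsBT was 0.221, 0.205 and 0.135 of NLP3 in mads61-3 and 0.852, 0.787 and 0.931 of NLP3 in WT. The ratio averaged 0.187 ± 0.0457 in mads61-3 and 0.857 ± 0.0722 in WT (SD, n = 3 each; exact two-sided permutation test, p = 0.1, the smallest possible, and 0.15 adjusted over the 9 ratios). With 1 library left out, the log2 ratio differed between groups by -2.36 to -2.004. NLP3 itself averaged 34.6 ± 4.51 FPKM in mads61-3 and 45.8 ± 12.1 FPKM in WT (SD, n = 3 each). As background, 3.67% of features had a ratio to NLP3 that was lower in all mutant libraries than in all WT libraries. Against SPX4 the ratio was 0.331, 0.277 and 0.196 in mads61-3 and 1.54, 1.795 and 1.63 in WT.

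**Figure D4:**
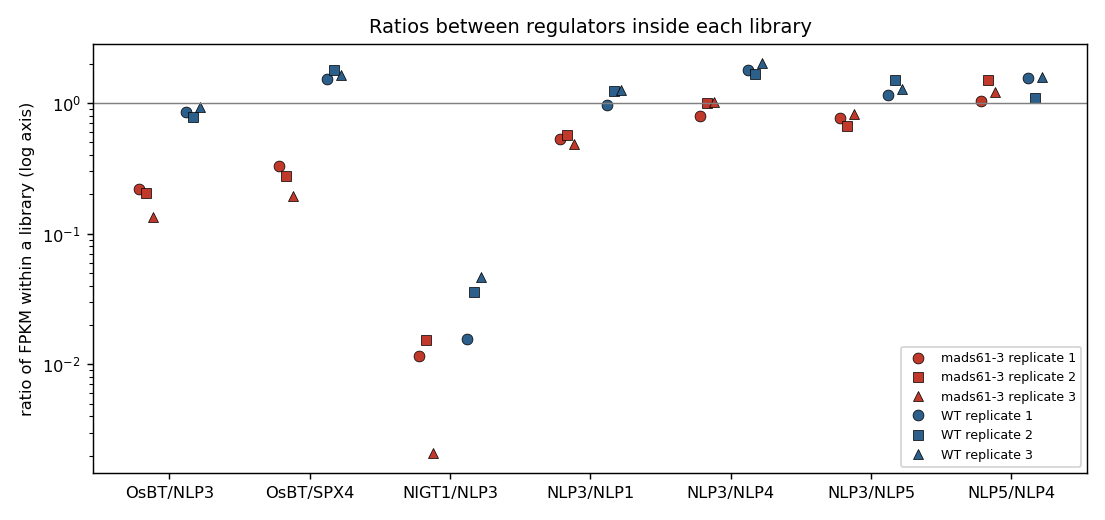
Ratio of FPKM between pairs of regulators inside each library (vertical log axis, line at 1), mads61-3 in red on the left of each pair and WT in blue, with symbols for the replicate number. The OsBT to NLP3 ratio is 0.135 to 0.221 in mads61-3 and 0.787 to 0.931 in WT, while NLP5 to NLP4 overlaps.

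NIGT1 (Os02g0325600, chromosome 2), the GARP repressor, was rare in both groups. It had 26, 23 and 4 counts in mads61-3, against 41, 77 and 71 counts in WT. In FPKM it stood at 0.423, 0.453 and 0.0779 in mads61-3 and 0.838, 1.83 and 1.48 in WT. The groups did not overlap, with mads61-3 replicate 3 lowest of the 6 and WT replicate 1 lowest of the WT libraries.

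NIGT1 averaged 0.555 ± 0.353 CPM in mads61-3 and 2.46 ± 0.63 CPM in WT (SD, n = 3 each). The log2 fold change was -2.13 (SE 0.64, 95% interval -3.65 to -0.61), short of the threshold (edgeR, adjusted p = 0.166). Before adjustment OsBT and NIGT1 were the 2 regulators with a p under 0.05 in edgeR, both lower in mads61-3, a mark that 16.5% of all features reached and 8.68% reached with a lower level. DESeq2 called both lower, NIGT1 at a log2 fold change of -2.14 (adjusted p = 0.0242), while it called 8.48% of its features, 4.63% as lower. Without WT replicate 3 the log2 fold change was -2.11 (edgeR, adjusted p = 0.189).

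SPX4 (Os03g0827500, chromosome 3), the cytoplasmic anchor of NLP3, did not pass the test. It had 24.5, 21.8 and 25.9 FPKM in mads61-3 and 29.8, 22.6 and 18.2 FPKM in WT, the mutants lying inside the WT range. The log2 fold change was -0.07 (SE 0.30, 95% interval -0.77 to 0.64; edgeR, adjusted p = 0.938), an interval that spans 0.586 to 1.55 times the WT level. With WT replicate 3 left out it was -0.26 (edgeR, adjusted p = 0.688). Its sign turned on the FPKM scale, at 0.05 in limma on log2(FPKM + 1), where the median of all features was 0.06 and not -0.04.

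In CPM, WT replicate 1 was the highest and WT replicate 3 the lowest of the WT libraries for 6 of the 8 genes (NLP1, NLP3, NLP4, NLP5, OsBT and SPX4), a pattern that 32.5% of all tested features showed. NLP6 and NIGT1 had WT replicate 1 lowest. In FPKM, WT replicate 3 was the lowest for the same count of 6, against 36.5% of features. The SD of log2(CPM + 0.5) was 0.12 to 0.61 among mutants and 0.20 to 0.70 among WT libraries for the 8 genes. The medians over all tested features were 0.24 and 0.45. The added 0.5 damps the spread of rare genes such as NIGT1 and NLP6.

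Likeness of pattern was measured as the root-mean-square (RMS) difference between log2(CPM + 0.5) values over the 6 libraries, each gene centred on its own mean. The added 0.5 damps differences of rare genes such as NIGT1 and NLP6. Among the regulators, NLP5 and SPX4 were the closest pair at 0.19, followed by NLP1 and NLP4 at 0.20. NLP3 was closer to SPX4 (0.25) than to NLP1 (0.57). OsBT and NIGT1 were each other's nearest and differed by 0.73.

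Among 4780 named genes averaging 10 CPM or more, those most like OsBT were OsNAC3 (RMS difference 0.12), a NAC transcription factor gene, GA2OX3 (0.19), for a gibberellin-inactivating oxidase, and Os6PGDH2 (0.20), for a 6-phosphogluconate dehydrogenase of the pentose phosphate pathway. OsNAC3 had 7.35, 4.19 and 4.30 CPM in mads61-3 and 52.9, 38.1 and 23.5 CPM in WT, with the same order of libraries as OsBT apart from a near tie of mutant replicates 2 and 3. The median difference from OsBT over all these genes was 1.38. For SPX4 the nearest were OsFbox557, OsCUL3b and OsCW-ZF3, at 0.04 to 0.05 beside a median of 0.47. For NIGT1 they were OsUCL1, OsETOL1 and OsSub1, at 0.26 to 0.29 beside a median of 0.93.

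NLP proteins switch on genes of nitrate uptake and reduction, and a list of 14 genes of that kind was read. Like the lists that follow, it was written with earlier results of these data known, so its counts are no independent test. All 14 genes were found and tested. Whether each is an NLP target in these roots was not tested. By edgeR 6 fell (NRT2.1, NRT2.2, NIA1, NiR, FNR and Fd) and 0 rose, against 0.924% of all features called lower. DESeq2 had 10 lower (4.63% of its features were) and 0 higher, and without adjustment edgeR put 11 below a p of 0.05, each of them lower (8.68% of all features). The median log2 fold change of the list was -3.14, beside -0.23 for the 8 regulators and -0.04 for all features. NiR, for nitrite reductase, had a log2 fold change of -4.74 (SE 0.48; edgeR, adjusted p = 0.0148). FNR and Fd, which bring electrons to nitrite reductase, had -3.54 and -3.34 (edgeR, adjusted p = 0.0146 and 0.0176). The split of reads between the near-identical NRT2.1 and NRT2.2 is uncertain, and NIA1 had next to no counts in the mutant. NRT1.1B, whose protein sets off the loss of SPX4, had 0.700, 2.21 and 0.514 CPM in mads61-3 and 7.75, 8.71 and 3.81 CPM in WT, without overlap and without passing the test (log2 fold change -2.56, SE 0.66; edgeR, adjusted p = 0.12). It was named after its values were seen. Without WT replicate 3 the count of the list was 8 lower, and without any 1 mutant library it was 0 (edgeR), where 10 or 11 had a p under 0.05 before adjustment. Those subsets were run in edgeR alone.

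The phosphate side of SPX4 showed no call. Of 10 SPX and PHR partners, edgeR, DESeq2 and limma-voom (0.885% of features called) called 0, and 0 had an unadjusted p under 0.05 in edgeR. Their log2 fold changes ran from -0.51 to 0.44 with a median of -0.11. Without WT replicate 3 edgeR called 0 of the 10. In that fit 1 of the 10 had an unadjusted p under 0.05, beside 5081 of 26191 features. PHO2, listed as LTN1 and encoding a ubiquitin-conjugating enzyme of phosphate homeostasis, had a log2 fold change of -0.04 (SE 0.54; edgeR, adjusted p = 0.98). PHR2, the central activator of phosphate starvation genes, had 102, 84.6 and 106 CPM in mads61-3 and 128, 115 and 106 CPM in WT (log2 fold change -0.26, SE 0.20; edgeR, adjusted p = 0.579).

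Of 9 tested genes on a list of other nitrate and nitrogen regulators, edgeR and limma-voom called 0, while DESeq2 called 2 lower, beside 4.63% of its features. Without adjustment, 4 had a p under 0.05 in edgeR, 2 in each direction, beside 16.5% of all features. All 4 were named after their values were seen. The 2 with lower levels were LBD37 (log2 fold change -2.06; edgeR, adjusted p = 0.113; DESeq2, adjusted p = 0.00634), whose Arabidopsis relatives repress nitrogen-responsive genes, and MADS57 (-1.67; edgeR, adjusted p = 0.0852; DESeq2, adjusted p = 0.0011). Without WT replicate 3 edgeR called MADS57 lower (adjusted p = 0.0261). The 2 with higher levels were MADS27, at 41.1, 30.1 and 45.2 CPM in mads61-3 and 27.1, 16.7 and 22.9 CPM in WT (log2 fold change 0.80, SE 0.26; edgeR, adjusted p = 0.198), and Os04g0495800, a locus without a name in the deposited tables. The list, written from memory, carries that locus as NLP2, which is not among the 5 NLP genes summed above. In FPKM it stood at 10.9, 8.45 and 9.13 in mads61-3 and 6.77, 8.22 and 5.20 in WT. Os04g0495800 had 42.5, 29.0 and 35.6 CPM in mads61-3 and 25.9, 26.3 and 17.3 CPM in WT (log2 fold change 0.63, SE 0.25; edgeR, adjusted p = 0.284), with mads61-3 replicate 2 above every WT library. The most abundant genes of the list were CIPK23, a kinase that acts on nitrate and potassium transporters (log2 fold change 0.13; edgeR, adjusted p = 0.893), and MADS25 (-0.26; edgeR, adjusted p = 0.831).

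**Figure D5:**
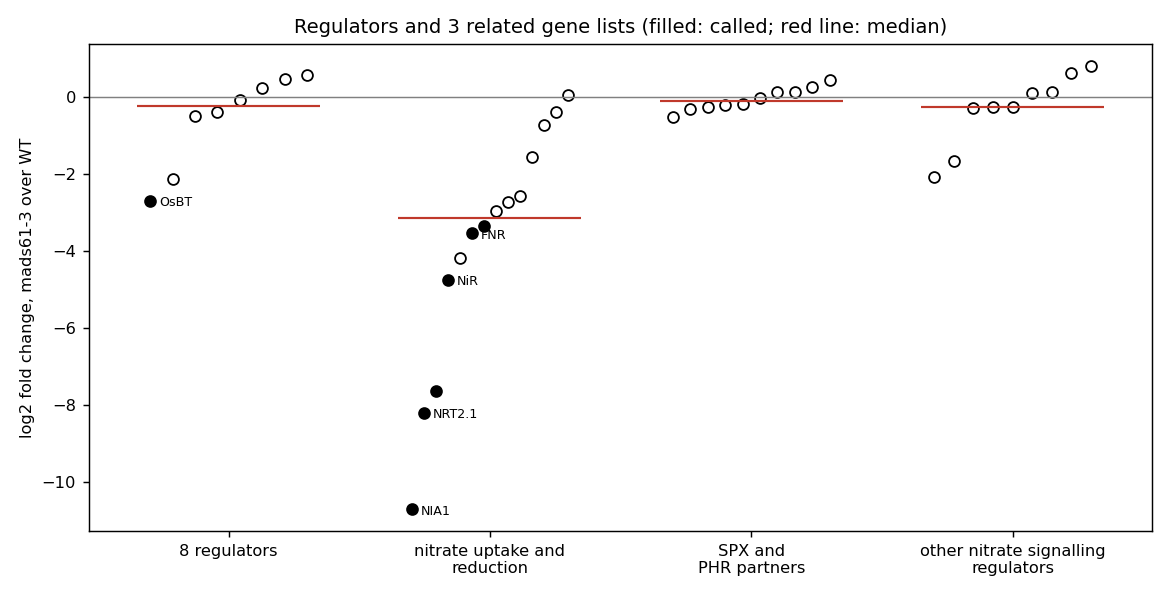
Log2 fold change, mads61-3 over WT (vertical axis), of the 8 regulators and of the tested genes of 3 lists, each sorted from low to high, with filled points for genes called by edgeR and a red line for the median. The median is -0.23 for the regulators, -3.14 for nitrate uptake and reduction, -0.11 for SPX and PHR partners and -0.25 for the other regulators.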

How the data were processed

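The deposited read counts are whole numbers per feature, not normalised, and the deposited FPKM are scaled by the authors to length and depth. Per the submitters' processing notes, HISAT2 2.0.5, StringTie 1.3.3, SAMtools 0.1.18 and Picard 1.41 were used. The build they name is GRCh38, which is human, whereas the features are rice loci. Rice build, counter and strand setting: not given in the sources used here. Therefore no coordinates are printed, chromosomes are read from locus identifiers, and overlapping or antisense genes cannot be told apart. Columns named mads61 with a number were read as replicates of line mads61-3.

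Counts were tested with edgeR 4.0.16 in R 4.3.3 (TMM scaling, default filter with a minimum count of 10, robust quasi-likelihood F-test, group as the only term, Benjamini-Hochberg adjustment over 25531 features). Standard errors were taken as the log2 fold change over the root of F. Alternatives were RLE scaling, no low-count filter, DESeq2 1.42.0, limma 3.58.1 (voom, or log2(FPKM + 1) or log2(FPKM + 0.1)), a replicate block, and leaving out each library. Counts of 3 stood for 0.0875 to 0.131 CPM, and no pair of libraries agreed within sampling noise.

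The regulators and lists were chosen with earlier results of these data known. List names and loci came from memory, and 46 of 48 were used. The named genes are the 8 regulators, OsMADS61, the called genes of each list or, with none called, its 2 most abundant by FPKM, and the 3 genes nearest in pattern to OsBT, NIGT1 and SPX4. NRT1.1B, LBD37, MADS57, MADS27 and Os04g0495800 fall outside this rule and were chosen after their values were seen. LSI1, LSI2, AKT1 and RCc3 form the whole root marker list, and were printed after their values were seen.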

Additional observations from a re-analysis of the deposited data

How the results depend on the processing

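No setting reversed a regulator other than SPX4, whose log2 fold change of -0.07 became 0.0575 in limma on log2(FPKM + 0.1), 0.0545 in limma on log2(FPKM + 1) with or without a filter, and -0.26 to 0.26 with 1 library left out. NIGT1 passed in DESeq2 (-2.14, adjusted p = 0.0242) and in none of the other 13 settings. OsBT stayed past the threshold in 10 of 14 settings. Regulators called numbered 2 in DESeq2 and 0 to 1 with 1 library left out, against 1. Calls over all features, 319, became 2466 in DESeq2, 559 and 481 in limma on log2(FPKM + 0.1) and log2(FPKM + 1), 81 with the replicate block, and 0 to 724 with 1 library left out. The 2 counts of 0, without mads61-3 replicate 1 or 3, had 2641 and 2608 features at an unadjusted p under 0.05 in edgeR. Of the nitrate uptake and reduction list, 10 were called in DESeq2 and 0 to 8 with 1 library left out, against 6, and of the other regulators 2 in DESeq2 and 0 to 1, against 0. The SPX and PHR list stayed at 0. Shares of NLP3 and NLP1 moved by less than 1 SD under all alternatives run. Same-numbered libraries had correlations of deviations from the group mean of 0.14, 0.25 and -0.22. Libraries with unlike numbers had -0.32 to 0.31, the highest between mads61-3 replicate 3 and WT replicate 1. With 3 libraries per group, such values cannot decide whether the numbers pair the samples. With the replicate block OsBT had an adjusted p of 0.0475 (log2 fold change -2.68) and NIGT1 0.25 (edgeR), and the nitrate list held 4 calls, without NiR and NRT2.2 (adjusted p = 0.0594 and 0.0607). Groups of 3 were too small to look for a deviating library by rule.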
